A study of Homo sapiens with 4 samples.

Results

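The genes described here are those of the human fatty acid desaturases and elongases, the membrane enzymes of the endoplasmic reticulum that add double bonds to acyl chains and lengthen them. Of 10 listed genes, SCD, SCD5, FADS1, FADS2, FADS3, ELOVL1, ELOVL2, ELOVL5, ELOVL6 and ELOVL7, 9 had a row in the expression table of 26603 genes when matched by symbol. SCD5, the second human stearoyl-CoA desaturase gene, had no row and was not analysed here. Messenger RNA was sequenced in PLC8024, an established human tumour cell line labelled as liver cancer, in 2 libraries of drug-treated cells (drug 1 and drug 2) and 2 libraries of control cells (control 1 and control 2). The drug, its dose and the length of treatment are not stated in the labels, nor is what the control cells received. The labels do not say whether the libraries of a group are separate cultures, and the p-values below therefore reflect the spread of these libraries alone, which may be technical. The comparison asks which of these transcripts differed between drug-treated and control cells.

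Mammalian cells make saturated palmitate with fatty acid synthase and then modify it. SCD places the first double bond in saturated chains, giving the monounsaturated acids used for triglycerides, cholesteryl esters and membranes. FADS2 and FADS1 act in turn on dietary essential fatty acids, with elongases between their steps, to give arachidonic and docosahexaenoic acid. ELOVL6 lengthens saturated chains made by the synthase, ELOVL1 very long saturated chains, and ELOVL5 and ELOVL2 polyunsaturated ones. In liver, SCD and several of the others are known targets of the transcription factor SREBP-1c and of the liver X receptors.

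Recovered gene reads totalled 40279560 and 38685856 in the drug libraries and 28526098 and 38611635 in the control libraries. The hepatocyte identity of the line was partial. Of 10 hepatocyte markers, 8 averaged at least 1 FPKM (fragments per kilobase of exon, scaled to library size). The APOB and TTR genes lay near 0. Among markers of fetal liver and liver cancer, AFP and EPCAM were below 1 FPKM. GPC3, also on that list, had 82.7 and 77.7 FPKM in drug libraries and 108 and 110.0 FPKM in control libraries. It was lower by limma (adjusted p = 0.00507). The hepatocyte markers summed to between 425 and 447 FPKM in drug libraries and between 722 and 728 FPKM in control libraries, most of it the fibrinogen gene FGB (mean 285 FPKM with drug and 552 FPKM in control). Its members went both ways: by limma ALB, APOA1, FGB, AHSG and TF were lower, the hepatocyte transcription factor gene HNF4A was higher (25.4 and 25.5 FPKM in drug libraries, 22.5 and 22.3 FPKM in control libraries, adjusted p = 0.0210), and SERPINA1 did not pass. The epithelial markers KRT8, KRT18 and CDH1 summed to between 399.6 and 421 FPKM in drug and 299.6 and 313 FPKM in control libraries, through the keratins. KRT8 and KRT18 were higher, and the cadherin gene CDH1 was lower, with 7.72 and 7.87 FPKM in drug libraries and 12.4 FPKM in both control libraries (limma adjusted p = 0.00175). Markers of fibroblasts or stellate cells summed to at most 0.667 FPKM in drug and 0.450 FPKM in control libraries, with all 4 below 1 FPKM. Of 4 leukocyte markers only CD14 had a row, at a sum of at most 0.157 FPKM in drug and 0.170 FPKM in control libraries. A missing row gives no level. No gene with a row was at 0 FPKM in both control libraries, while 2073 were at 0 FPKM in both drug libraries. The endothelial markers summed to between 2.11 and 2.23 FPKM in drug and between 4.16 and 4.69 FPKM in control libraries, with VWF and CDH5 below 1 FPKM. Nearly all of this was PECAM1, at 2.09 and 2.23 FPKM in drug libraries and 4.66 and 4.11 FPKM in control libraries. PECAM1 was lower by limma (log2 fold change -0.77, adjusted p = 0.00669). The part of these differences in the results for lipid genes was not tested.

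The regulatory sequence just before the start is shown for the 4 genes whose levels differed past the test, because 3 of them were lower and 1 higher with drug. Each sequence is the 250 bases before the RefSeq transcript start (GRCh38.p14), read 5′ to 3′ on the gene's own strand. They lie at chr10:100346983-100347232 (plus strand) for SCD, chr11:61817004-61817253 (minus strand) for FADS1, chr6:53348951-53349200 (minus strand) for ELOVL5 and chr6:11044306-11044555 (minus strand) for ELOVL2. In GENCODE 29 the FADS1 gene begins farther upstream, so its window lies inside the gene body, and parts of the SCD, ELOVL5 and ELOVL2 windows also overlap their gene bodies. Capitals mark matches on either strand to CCAAT, the core of the NF-Y box, to GGGCGG, the GC box of Sp1-type factors, and to CACGTG, an E-box.
SCD: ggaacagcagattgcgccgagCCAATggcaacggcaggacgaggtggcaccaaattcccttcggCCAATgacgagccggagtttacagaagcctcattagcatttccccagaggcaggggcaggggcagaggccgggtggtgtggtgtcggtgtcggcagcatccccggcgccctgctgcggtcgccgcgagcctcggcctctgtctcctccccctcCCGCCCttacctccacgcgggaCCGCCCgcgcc
FADS1: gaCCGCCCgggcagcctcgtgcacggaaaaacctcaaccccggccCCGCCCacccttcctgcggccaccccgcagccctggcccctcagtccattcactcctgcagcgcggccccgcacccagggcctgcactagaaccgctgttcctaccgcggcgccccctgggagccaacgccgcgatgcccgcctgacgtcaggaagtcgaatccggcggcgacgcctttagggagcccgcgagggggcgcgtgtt
ELOVL5: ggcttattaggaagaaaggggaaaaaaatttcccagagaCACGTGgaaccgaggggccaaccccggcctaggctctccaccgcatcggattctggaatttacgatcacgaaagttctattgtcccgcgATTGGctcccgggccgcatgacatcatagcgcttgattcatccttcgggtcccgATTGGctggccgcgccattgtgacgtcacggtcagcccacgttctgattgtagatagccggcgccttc
ELOVL2: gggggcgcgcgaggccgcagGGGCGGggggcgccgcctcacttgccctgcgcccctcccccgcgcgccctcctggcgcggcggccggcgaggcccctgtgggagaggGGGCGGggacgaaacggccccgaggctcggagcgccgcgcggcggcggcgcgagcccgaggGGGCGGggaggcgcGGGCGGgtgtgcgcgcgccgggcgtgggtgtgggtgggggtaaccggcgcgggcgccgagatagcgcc

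SCD held 2 CCAAT boxes, starting 229 and 186 bases before the start, and 2 GC boxes. ELOVL5 also held 2 CCAAT boxes, at 122 and 68 bases, and an E-box at 211 bases. FADS1 held 2 GC boxes and ELOVL2 held 4, and neither held a CCAAT box. Among 35116 promoters of the same length, 32.0% held at least 1 CCAAT box and 9.53% at least 2. A GC box was in 42.6% and at least 2 in 24.3%, and this E-box in 6.34%. FADS3, which did not pass the test, also held 2 CCAAT boxes. Of the genes that did not pass, ELOVL1 held 5 GC boxes and ELOVL7 and FADS3 held 4 each. ELOVL6 held 1, and the FADS2 windows held 0 and 1. The ELOVL2 window was 84.8% G and C, against a median of 58.0% over all promoters. The sterol response element letters TCACNCCAC, present in 0.883% of all promoters, were absent from these windows of all 10 listed genes. So were the liver X receptor repeat (AGGTCA repeated after 4 bases) and the PPAR repeat (AGGTCA repeated after 1 base), found in 0.0142% and 0.0171% of promoters. A match or its absence describes these letters in this window only.

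Drug-treated cells had less SCD, FADS1 and ELOVL5 RNA and more ELOVL2 RNA than control cells. By limma on log2(FPKM + 1), with Benjamini-Hochberg adjustment over 11227 genes, 3 of the 9 genes were lower and 1 was higher at an adjusted p under 0.05, against 6.02% of all tested genes lower, 7.78% higher and 13.8% in either direction. The balance over all genes depended on the scaling, with 873 higher and 676 lower here, and 549 higher and 724 lower after TMM scaling of the FPKM. The median log2 fold change of the 9 genes was -0.12, and that of all tested genes was 0.036. In each of the 9 genes the drug and control libraries did not overlap in FPKM, which was also true of 63.5% of all tested genes. Drug libraries were below control libraries for 6 of the 9 genes, where 23.3% of tested genes had this order, and above them for 3, where 40.3% did. All 9 passed the filter on low values, a group mean of 1 FPKM or more, but FADS2 did so through the control group alone and ELOVL7 through the drug group alone. In cell populations, fewer cells with a transcript and less of it per cell cannot be told apart.

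**Figure D1:**
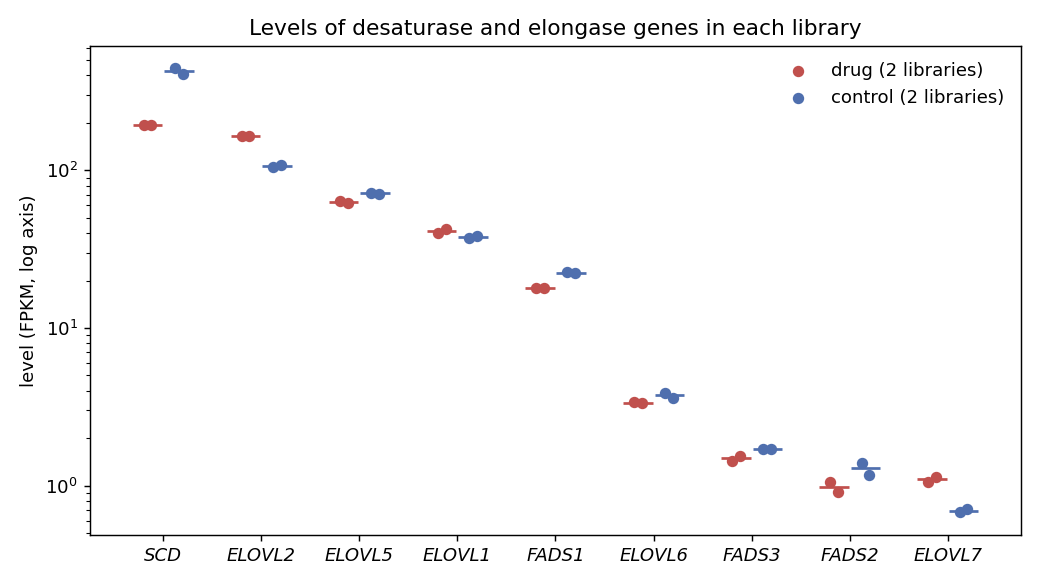
Level of each gene in FPKM on a log axis, with 1 point per library (2 drug libraries, left, and 2 control libraries, right, of each gene) and a bar at the group mean. SCD lies at 194 and 195 FPKM in the drug libraries and at 445 and 411 FPKM in the control libraries, while FADS3, FADS2 and ELOVL7 lie below 2 FPKM in every library.

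SCD (ENSG00000099194) spans chromosome 10 from 100347124 to 100364834 on the plus strand of GRCh38. Its level was 194 and 195 FPKM in drug libraries and 445 and 411 FPKM in control libraries. The drug libraries lay within 1 FPKM of each other and far below both control libraries. SCD averaged 194 ± 0.282 FPKM with drug and 428 ± 23.9 FPKM in control (SD, n = 2 each), a level 2.20-fold higher in control cells. The log2 fold change was -1.13 ± 0.04 (SE), with a limma adjusted p of 0.000841. SCD ranked 68 by mean level and 16 from the lowest by fold change among 11227 tested genes. These values rest on 41023 and 39482 recovered reads in drug libraries and 66588 and 83294 recovered reads in control libraries. In each alternative run, including each library left out, the call was kept (log2 fold changes from -1.19 to -1.08 and limma adjusted p at most 0.0139), and edgeR on recovered reads gave -1.17 (adjusted p = 9.82e-08).

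The processed pseudogene SCDP1, a copy of the SCD transcript on chromosome 17 at 20784645 to 20785725, could share reads with it. SCDP1 had 16 and 18 reads in drug libraries and 33 and 34 reads in control libraries. These equal 0.0390% and 0.0456% of the SCD reads in drug libraries and 0.0496% and 0.0408% in control libraries.

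FADS1 (ENSG00000149485), the delta-5 desaturase gene of the pathway to arachidonic acid, spans chromosome 11 from 61799625 to 61829318 on the minus strand. Its level was 17.9 FPKM in both drug libraries, against 22.5 and 22.2 FPKM in control libraries. Both drug libraries lay below both control libraries. The means were 17.9 ± 0.00299 FPKM with drug and 22.3 ± 0.190 FPKM in control (SD, n = 2 each), and the log2 fold change was -0.30 ± 0.03 (SE; limma adjusted p = 0.00669). Without control 1 the adjusted p was 0.0503, and with any other library left out it stayed under the threshold, at most 0.0466.

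FADS2 (ENSG00000134824), whose product catalyses the delta-6 step before FADS1, spans chromosome 11 from 61792980 to 61867354 on the plus strand. Its level was 1.06 and 0.911 FPKM in drug libraries and 1.40 and 1.17 FPKM in control libraries, from 449 and 372 reads with drug and 420 and 478 reads in control. The groups did not overlap, but the libraries within each group lay farther apart than drug 1 and control 2 did. FADS2 did not pass limma (log2 fold change -0.20, 95% confidence interval -0.46 to 0.06, adjusted p = 0.234) or edgeR (-0.42, adjusted p = 0.0630), while DESeq2 on recovered reads gave -0.41 (adjusted p = 0.0291). At this low level the pseudocount shapes the value, and with a pseudocount of 0.01 the limma log2 fold change was -0.38 (adjusted p = 0.244).

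FADS3 (ENSG00000221968), a related desaturase gene that follows FADS2 on chromosome 11 from 61873519 to 61892051 on the minus strand, had 1.44 and 1.55 FPKM in drug libraries and 1.72 and 1.70 FPKM in control libraries. It did not pass limma (log2 fold change -0.12, 95% confidence interval -0.31 to 0.07, adjusted p = 0.320). FADS1 and FADS2 share 490 exon bases on opposite strands, and FADS2 shares 49 exon bases with the flap endonuclease gene FEN1 on its own strand. The library kit keeps strand, but whether the counting used it is not given in the sources used here, so reads of the shared bases could be placed on either gene. The ratio of FADS2 to FADS1 FPKM was 0.0591 and 0.0510 in drug libraries and 0.0621 and 0.0529 in control libraries. These ranges overlapped, and an exact two-sided permutation test gave p = 0.667, where the smallest p that 2 against 2 libraries allow is 0.333.

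**Figure D2:**
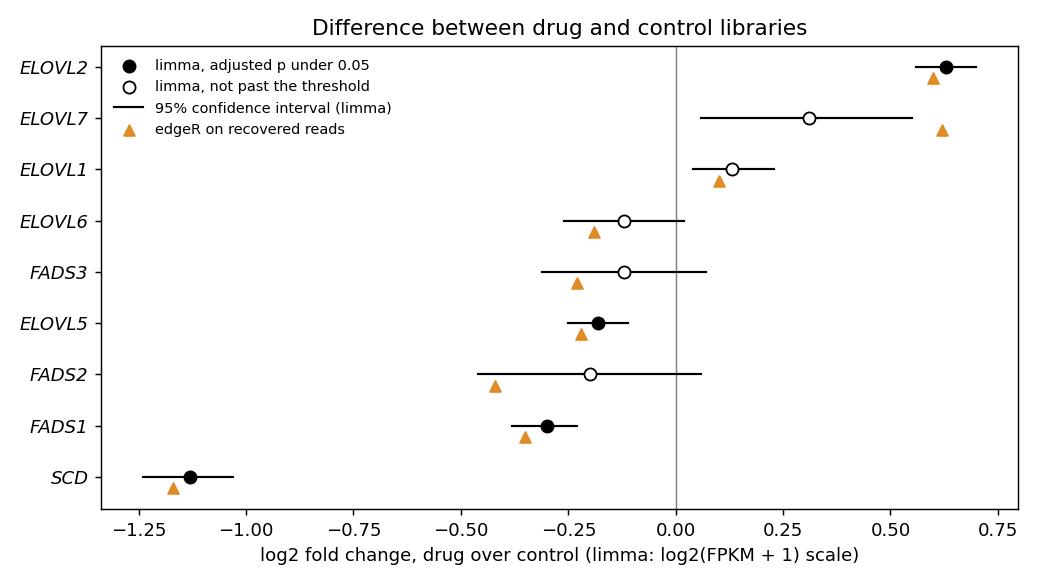
Log2 fold change of drug over control for each gene. Circles are limma estimates on the log2(FPKM + 1) scale with 95% confidence intervals, filled where the adjusted p is under 0.05, and triangles are edgeR estimates from recovered reads. SCD stands lowest at -1.13 and ELOVL2 highest at 0.63, and the estimates for the low-level genes FADS2 and ELOVL7 differ between the scales (-0.20 and -0.42 for FADS2, 0.31 and 0.62 for ELOVL7).

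ELOVL2 (ENSG00000197977), the elongase gene needed for the longest polyunsaturated chains such as those leading to docosahexaenoic acid, spans chromosome 6 from 10980759 to 11044314 on the minus strand. Its level was 166 and 164 FPKM in drug libraries and 105 and 108 FPKM in control libraries. Both drug libraries lay well above both control libraries. ELOVL2 averaged 165 ± 1.57 FPKM with drug and 106 ± 2.11 FPKM in control (SD, n = 2 each), a 1.55-fold rise. The log2 fold change was 0.63 ± 0.03 (SE; limma adjusted p = 0.00104), and the call was kept in each alternative run, with limma adjusted p at most 0.0181. It ranked 198 by mean level among the tested genes and 103 from the highest by fold change. ELOVL2-AS1, the antisense gene whose body overlaps the start of ELOVL2 without sharing exon bases, had 1.09 and 0.991 FPKM in drug libraries and 0.823 and 0.770 FPKM in control libraries, and did not pass (adjusted p = 0.255).

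ELOVL5 (ENSG00000012660), which encodes the elongase acting on polyunsaturated chains between the FADS2 and FADS1 steps, spans chromosome 6 from 53267398 to 53349179 on the minus strand. Its level was 63.8 and 62.3 FPKM in drug libraries and 72.1 and 71.2 FPKM in control libraries. Both drug libraries were lower, by a smaller fold than for SCD or FADS1. The means were 63.1 ± 1.05 FPKM with drug and 71.7 ± 0.639 FPKM in control (SD, n = 2 each), and the log2 fold change was -0.18 ± 0.03 (SE; limma adjusted p = 0.0179). The call was lost with any library left out and without the filter: the adjusted p was 0.0873 without control 1, 0.0729 without control 2, 0.0633 without drug 1, 0.0920 without drug 2 and 0.0600 without the filter on low values. With edgeR on recovered reads it was 0.00366.

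ELOVL1 (ENSG00000066322), the gene for the elongase of very long saturated chains, spans chromosome 1 from 43363397 to 43368074 on the minus strand. It had 40.2 and 42.7 FPKM in drug libraries and 37.2 and 38.2 FPKM in control libraries, and did not pass limma (log2 fold change 0.13, 95% confidence interval 0.04 to 0.23, adjusted p = 0.0826). ELOVL6 (ENSG00000170522), which lengthens the palmitate chain that SCD then desaturates, spans chromosome 4 from 110045846 to 110199199 on the minus strand. It had 3.37 and 3.36 FPKM in drug libraries and 3.87 and 3.61 FPKM in control libraries, and did not pass (log2 fold change -0.12, 95% confidence interval -0.26 to 0.02, adjusted p = 0.198). Both intervals exclude a change as large as that of SCD.

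ELOVL7 (ENSG00000164181), another elongase gene for saturated chains, spans chromosome 5 from 60751791 to 60844389 on the minus strand. Its level was 1.06 and 1.13 FPKM in drug libraries and 0.676 and 0.708 FPKM in control libraries, from 190 and 195 reads with drug and 86 and 122 reads in control. Both drug libraries lay above both control libraries, at 1.58 times the control mean. On the log2(FPKM + 1) scale the fold change was 0.31 (95% confidence interval 0.06 to 0.55) and did not pass limma (adjusted p = 0.0983), while with a pseudocount of 0.01 it was 0.65 (adjusted p = 0.117). With edgeR on recovered reads ELOVL7 was higher, at 0.62 (adjusted p = 0.0370), as with DESeq2 (adjusted p = 0.0458). edgeR thus placed 2 of the 9 genes higher and 3 lower, where it called 5.76% of 16559 tested genes higher and 7.22% lower. DESeq2 placed 2 higher and 4 lower, against 7.94% and 9.32% of its tested genes.

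In the authors' deposited table, SCD (adjusted p = 4.19e-213), FADS1 (9.06e-20), ELOVL5 (1.06e-07) and ELOVL2 (1.71e-77) were under 0.05, and SCD alone was marked as down. The log2 fold changes of the authors' deposited table were -1.17 for SCD, -0.35 for FADS1, -0.22 for ELOVL5 and 0.60 for ELOVL2. That table had an adjusted p under 0.05 with a higher level for 3.18% and with a lower level for 4.03% of its genes. Its genes include 2073 at 0 FPKM in both drug libraries and none at 0 FPKM in both control libraries.

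By level, the genes kept the order SCD, ELOVL2, ELOVL5, ELOVL1, FADS1, ELOVL6, FADS3 in both groups. The lowest places differed: with drug ELOVL7 (1.09 FPKM) came before FADS2 (0.984 FPKM), and in control FADS2 (1.28 FPKM) came before ELOVL7 (0.692 FPKM). Neighbours in this order did not overlap across the libraries of a group, although in drug 1 ELOVL7 and FADS2 were both at 1.06 FPKM. The 4 desaturase genes with a row summed to 215 FPKM in both drug libraries and to 471 and 436 FPKM in control libraries. The 5 elongase genes summed to 275 and 274 FPKM in drug libraries and to 219 and 222 FPKM in control libraries. The elongase sum therefore exceeded the desaturase sum in both drug libraries and lay below it in both control libraries.

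SCD made up 39.7% and 39.8% of the summed FPKM of the 9 genes in drug libraries and 64.6% and 62.5% in control libraries. ELOVL2 made up 60.5% and 59.9% of the elongase sum in drug libraries and 47.9% and 48.7% in control libraries. There were 1.17 and 1.19 FPKM of SCD per FPKM of ELOVL2 in drug libraries and 4.24 and 3.81 in control libraries. ELOVL2 stood at 2.60 and 2.63 times ELOVL5 in drug libraries and at 1.45 and 1.51 times in control libraries. These compositions did not overlap between groups and rest on levels that SCD and ELOVL2 dominate. For the SCD to ELOVL2 and ELOVL2 to ELOVL5 ratios the exact two-sided permutation p was 0.333, the smallest that 2 against 2 libraries allow. Of all tested genes, 63.5% did not overlap between groups in FPKM. The ratio of ELOVL5 to ELOVL6 FPKM did overlap, at 18.9 and 18.6 in drug libraries and 18.6 and 19.7 in control libraries (exact two-sided permutation p = 0.667).

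**Figure D3:**
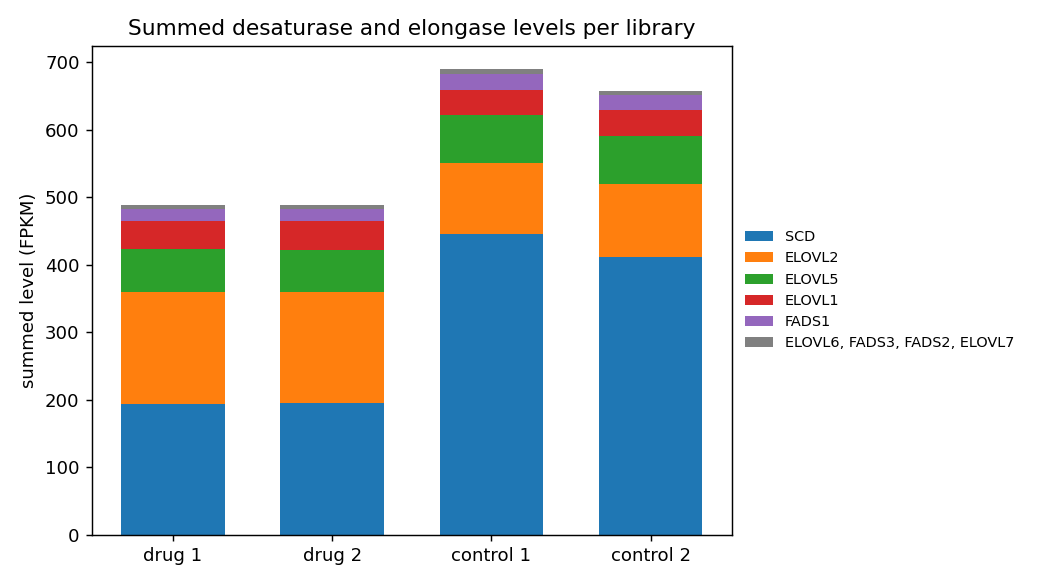
Summed FPKM of the 9 genes in each library, stacked by gene, with the 4 lowest genes joined in grey. The drug libraries reach 489 and 488 FPKM and the control libraries 689 and 658 FPKM, and the SCD layer is smaller and the ELOVL2 layer larger in the drug libraries.

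Among the enzymes that complete each elongation cycle, the dehydratase genes HACD2 and HACD3 were higher by limma, and HACD1 was lower by edgeR. Chain elongation needs a reductase (HSD17B12), a dehydratase (HACD1 to HACD4) and an enoyl reductase (TECR) after the elongase. Of 6 such genes, 5 were tested and 2 were higher and none lower by limma, with a median log2 fold change of -0.04, while edgeR called 1 higher (HACD2) and 1 lower (HACD1). Over all tested genes limma called 7.78% higher and 6.02% lower (median 0.036), and edgeR 5.76% and 7.22%. HACD2, a broadly expressed dehydratase gene, had 48.1 and 50.6 FPKM in drug libraries and 41.6 FPKM in both control libraries (log2 fold change 0.24, limma adjusted p = 0.0161). HACD3 had 56.5 and 56.7 FPKM in drug libraries and 50.6 and 52.4 FPKM in control libraries (0.13, limma adjusted p = 0.0446). HACD1 had 5.33 and 6.10 FPKM in drug libraries and 6.68 and 7.74 FPKM in control libraries (-0.29, limma adjusted p = 0.0914; edgeR -0.37, adjusted p = 0.0238). HACD2 was past the threshold no longer when control 1 (0.0815), control 2 (0.0778) or drug 2 (0.0670) was left out, nor HACD3 with any library left out, with TMM-scaled FPKM (0.116) and with edgeR (0.0782).

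Desaturases receive electrons through cytochrome b5 and its reductases. None of the 5 tested genes of this chain passed limma out of 6 listed, and their median log2 fold change was 0.06. The smallest limma adjusted p among them were 0.0756 (CYB5A) and 0.0789 (CYB5R1), and edgeR at an adjusted p under 0.05 called 0. Over all tested genes limma called 13.8% in either direction (median 0.036) and edgeR 13.0%. Among so few genes a count of 0 is not set apart from these shares. CYB5B, the form on the outer mitochondrial membrane and the highest of them, had 63.8 and 63.3 FPKM in drug libraries and 63.4 and 65.4 FPKM in control libraries. Among other genes of the desaturase and elongase families, ELOVL3 had 5.20 and 6.26 FPKM in drug libraries and 5.88 and 7.10 FPKM in control libraries (adjusted p = 0.380). DEGS1, the desaturase that makes ceramide, had 41.7 and 41.8 FPKM in drug libraries and 39.1 and 39.8 FPKM in control libraries (adjusted p = 0.110). The 3 others, ELOVL4, FADS6 and DEGS2, were below the filter.

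Genes that supply saturated chains included 2 that were lower and none higher among 7 tested by limma, with a median of -0.13, and 4 that were lower by edgeR. The share lower over all tested genes was 6.02% by limma (median 0.036) and 7.22% by edgeR. The fatty acid synthase gene FASN had 30.6 and 32.0 FPKM in drug libraries and 39.2 and 37.8 FPKM in control libraries (log2 fold change -0.29, limma adjusted p = 0.0122). ACSS2, which makes acetyl-CoA from acetate, had 6.45 and 6.13 FPKM in drug libraries and 7.81 and 7.55 FPKM in control libraries (-0.25, limma adjusted p = 0.0282). The FASN call was lost when control 1 (0.0674), control 2 (0.0534) or drug 1 (0.0574) was left out, and that of ACSS2 with any library left out (0.0716 to 0.129). The ATP citrate lyase gene ACLY had 51.1 and 52.0 FPKM in drug libraries and 55.2 and 54.3 FPKM in control libraries (limma adjusted p = 0.0965, edgeR 0.0392). The malic enzyme gene ME1, a source of NADPH, had 26.9 and 26.5 FPKM in drug libraries and 30.0 and 28.7 FPKM in control libraries (limma adjusted p = 0.0608, edgeR 0.0227). SLC25A1 (log2 fold change 0.03, limma adjusted p = 0.568) and ACACB (0.09, 0.488) passed neither tool. Nor did ACACA (-0.38, limma adjusted p = 0.454), whose groups overlapped, at 0.391 and 0.703 FPKM with drug and 1.77 and 0.453 FPKM in control.

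Acyl-CoA synthetases, which activate fatty acids for these enzymes, went both ways: of 5 tested among 10 listed, 2 were higher and 2 lower, with a median of -0.10. All tested genes had 7.78% higher and 6.02% lower by limma, with a median of 0.036. ACSL4, which prefers arachidonic acid, had 120.5 and 117 FPKM in drug libraries and 153 and 150.2 FPKM in control libraries (log2 fold change -0.35, limma adjusted p = 0.00445), and kept its call in each alternative run. ACSL3 had 7.23 and 7.44 FPKM in drug libraries and 8.90 and 8.56 FPKM in control libraries (-0.22, adjusted p = 0.0300). ACSL5 had 8.72 and 8.68 FPKM in drug libraries and 6.08 and 6.82 FPKM in control libraries (0.38, adjusted p = 0.0196). SLC27A4, a fatty acid transport protein with synthetase activity, had 13.3 and 14.0 FPKM in drug libraries and 11.1 and 11.3 FPKM in control libraries (0.27, adjusted p = 0.0185). ACSL3 and SLC27A4 lost their calls with any library left out (0.0916 to 0.132 and 0.0505 to 0.0917), and ACSL5 without control 1 (0.0653), drug 1 (0.0790) or drug 2 (0.0843).

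Of 7 tested peroxisomal genes, from a list of 8 for shortening very long chains, 1 was lower and none higher by limma, with a median of 0.04, and 2 were lower by edgeR. Across all tested genes, limma called 7.78% higher and 6.02% lower (median 0.036), and edgeR called 7.22% lower. Both tools called PECR, a peroxisomal enoyl-CoA reductase, with 16.2 and 16.6 FPKM in drug libraries and 21.7 and 21.9 FPKM in control libraries (log2 fold change -0.39, limma adjusted p = 0.00445), a call kept in each alternative run. SCP2, the gene of a peroxisomal thiolase and sterol carrier, had 20.6 and 20.2 FPKM in drug libraries and 22.3 and 22.4 FPKM in control libraries (-0.13, limma adjusted p = 0.0503; edgeR -0.17, adjusted p = 0.0163). Among 6 tested acyltransferases of phospholipid synthesis and remodelling, out of 12 listed, 1 was higher and none lower (median -0.01). It was AGPAT3, with 13.7 and 13.5 FPKM in drug libraries and 11.5 FPKM in both control libraries (0.23, adjusted p = 0.0166), which lost its call with any library left out (0.0726 to 0.0831). LPCAT3, which puts arachidonic acid into phospholipids, had 2.97 and 2.87 FPKM in drug libraries and 3.47 and 3.35 FPKM in control libraries (adjusted p = 0.0989). LPCAT4, below the filter of the limma test, had 0.818 and 0.291 FPKM in drug libraries and 0.201 and 0.0936 FPKM in control libraries and was higher by edgeR (adjusted p = 0.0356).

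Of 15 tested regulators of desaturase transcription, 4 were lower and none higher by limma, with a median of 0.02, and 5 were lower by edgeR. Among all tested genes, 6.02% were lower and 7.78% higher by limma (median 0.036), and 7.22% were lower by edgeR. SREBF1, which encodes SREBP-1, had 4.18 and 4.23 FPKM in drug libraries and 6.35 and 6.44 FPKM in control libraries (log2 fold change -0.51, limma adjusted p = 0.00500), and kept its call in each alternative run. INSIG1, whose product holds SREBP in the endoplasmic reticulum and is itself an SREBP target, had 13.0 and 11.7 FPKM in drug libraries and 16.8 and 16.5 FPKM in control libraries (-0.40, adjusted p = 0.0142). The other 2 were chosen for naming with their values in view. SREBF2 had 15.0 and 14.9 FPKM in drug libraries and 17.5 and 17.9 FPKM in control libraries (-0.23, adjusted p = 0.0146), and the fatty acid receptor gene PPARA had 2.97 and 2.98 FPKM in drug libraries and 3.78 and 3.59 FPKM in control libraries (-0.24, adjusted p = 0.0482). For INSIG1 the adjusted p was 0.0799 without control 1 and 0.0724 without control 2, and SREBF2 and PPARA lost their calls with any library left out (0.0680 to 0.0765 and 0.120 to 0.188). INSIG2, a relative of INSIG1, had 5.60 and 5.29 FPKM in drug libraries and 7.56 and 6.53 FPKM in control libraries (-0.32, limma adjusted p = 0.0520; edgeR -0.40, adjusted p = 0.0146). The liver X receptor genes NR1H3 (4.75 and 4.79 FPKM with drug, 3.99 and 4.43 FPKM in control) and NR1H2 (6.94 and 6.91 FPKM with drug, 5.78 and 6.50 FPKM in control) did not pass (adjusted p = 0.152 and 0.149).

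**Figure D4:**
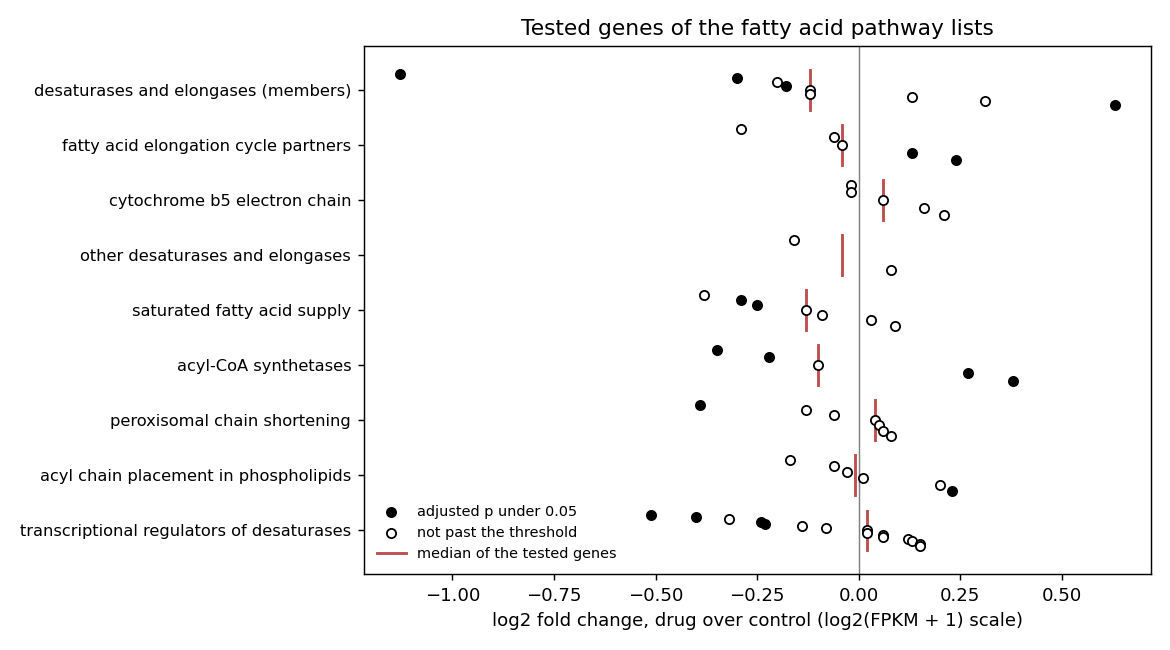
Log2 fold change of drug over control on the log2(FPKM + 1) scale for each tested gene, by list, filled where the limma adjusted p is under 0.05, with the list's median as a vertical bar. List medians lie between -0.13 and 0.06, and SCD at -1.13 and ELOVL2 at 0.63 are farther from 0 than any gene of the other lists, where SREBF1 at -0.51 is lowest and ACSL5 at 0.38 highest.

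Genes beside the desaturase and elongase genes were compared in the same way. Of 39 other genes in the table within 100 kb of a member, 19 were tested, 4 were higher and 1 was lower by limma. Over all tested genes, 7.78% were higher and 6.02% lower. Beside SCD, the long non-coding gene OLMALINC on the same strand had 1.19 and 1.22 FPKM in drug libraries and 2.03 and 2.16 FPKM in control libraries (log2 fold change -0.49, adjusted p = 0.0199). BLOC1S2 on the other side of SCD had 18.8 and 18.5 FPKM in drug libraries and 19.8 and 19.1 FPKM in control libraries (adjusted p = 0.305). Beside the FADS genes, the transcription factor gene MYRF had 5.61 and 6.09 FPKM in drug libraries and 3.97 and 3.92 FPKM in control libraries (0.47, adjusted p = 0.00997), opposite in sign to FADS1. FEN1 had 44.3 and 46.9 FPKM in drug libraries and 42.4 and 43.7 FPKM in control libraries (adjusted p = 0.210). The other 3 that were higher were CDC20 (0.26, adjusted p = 0.0198) and EBNA1BP2 (0.14, adjusted p = 0.0432) near ELOVL1, and DEPDC1B (0.18, adjusted p = 0.0357) near ELOVL7. The calls of all 5 were lost when either control library was left out (control 1, then control 2: OLMALINC 0.0795 and 0.0888, MYRF 0.0622 and 0.0629, CDC20 0.0940 and 0.0721, EBNA1BP2 0.151 and 0.120, DEPDC1B 0.104 and 0.130). OLMALINC, EBNA1BP2 and DEPDC1B also lost them without drug 1 (0.0797, 0.103 and 0.131), and these 3 and CDC20 without drug 2 (0.0808, 0.177, 0.112 and 0.0722). The other 14 tested neighbours did not pass limma, with log2 fold changes from -0.11 to 0.18. edgeR kept OLMALINC (6.82e-05), MYRF (7.18e-05) and CDC20 (0.00515), and did not call EBNA1BP2 (0.0979) or DEPDC1B (0.0588).

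The tested genes whose pattern over the 4 libraries was most like that of SCD were found by the Euclidean distance between log2(FPKM + 1) values, each centred on its own mean. They were SLC2A3, a glucose transporter gene (distance 0.055), ENSG00000226160, an identifier without a symbol in the table (0.072), FABP1, the liver fatty acid-binding protein gene (0.086), and AMDHD1, an enzyme gene of histidine breakdown (0.121). SLC2A3 had 53.0 and 54.5 FPKM in drug libraries and 119 and 113 FPKM in control libraries. FABP1 had 4.92 and 5.39 FPKM in drug libraries and 12.6 and 12.0 FPKM in control libraries, and AMDHD1 had 11.7 and 11.4 FPKM in drug libraries and 25.0 and 25.1 FPKM in control libraries. ENSG00000226160 rests on 0 reads in the drug libraries and 3 and 4 reads in the control libraries.

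**Figure D5:**
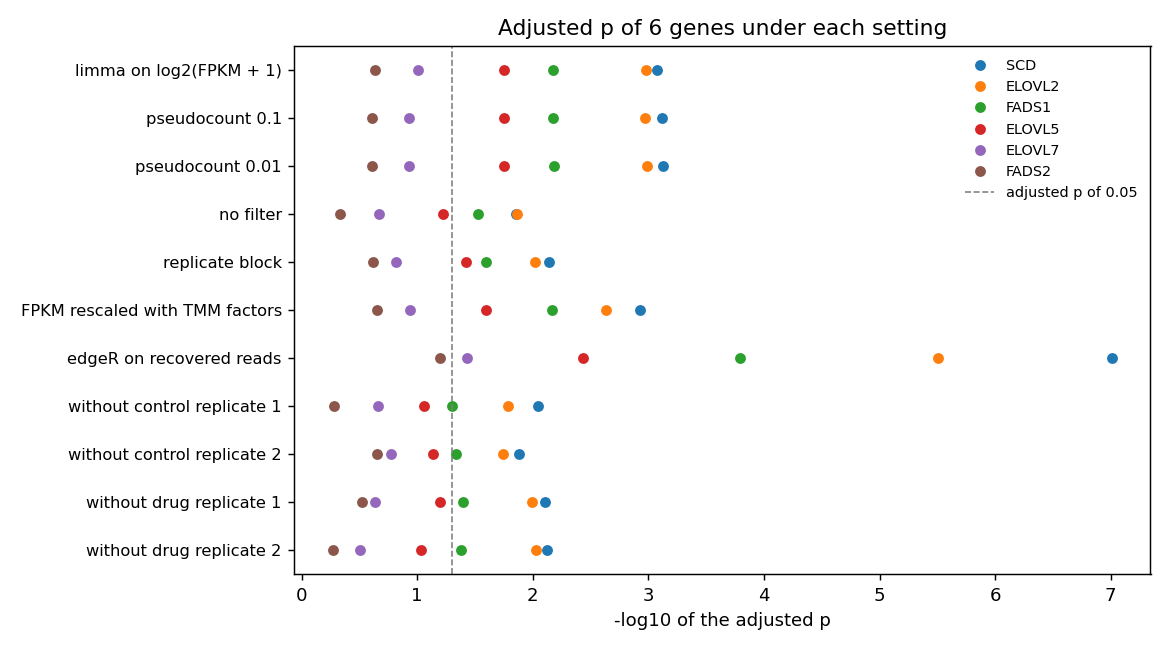
Adjusted p of 6 genes on a -log10 scale under limma on log2(FPKM + 1) and 10 alternatives (DESeq2 not shown), with a dashed line at 0.05. SCD and ELOVL2 lie right of the line in every row shown, FADS1 in all but the row without control replicate 1 (0.0503), and ELOVL5 crosses to the left in each row with a library left out and in the row without a filter.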

How the data were processed

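RNA was taken up in trizol and libraries were made with the Illumina TruSeq stranded mRNA kit, per the labels' protocols. Demultiplexing with bcl2fastq and the build hg38 are named in the submitters' processing notes. No aligner, counter or annotation is given in the sources used here. The 4 library columns are FPKM that the authors deposited, identified from the values. The group columns are mean normalized read counts deposited by the authors, a signal whose values are reads scaled by library size factors. The log2 fold changes, p-values and adjusted p-values were deposited by the authors, per the file headers. No per-sample column was left unused (0).

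The FPKM columns and the group means were combined to recover whole reads for each library. Among values of low read number, 100% lay within 0.1 reads of a whole number. The step was tested on simulated data, also scored at low read numbers. Values of high read number, such as those of SCD and ELOVL2, were outside both checks and are rounded estimates. limma 3.58.1, with a trend, was run on log2(FPKM + 1) of genes whose mean reached 1 FPKM in either group, a scale that understates changes of low genes, with Benjamini-Hochberg adjustment over all genes tested and a threshold of 0.05. Folds are ratios of mean FPKM. The count tests edgeR 4.0.16 and DESeq2 1.42.0 were run on recovered reads as alternatives, beside pseudocounts of 0.1 and 0.01, no filter, TMM-scaled FPKM, leaving out each library in turn, and a replicate block. The design allowed for either unit, and no set test was used. The ratios of SCD and ELOVL2 to other members, the family sums, SCDP1, and the alternatives for genes outside the family were added after the data were seen.

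The members, gene lists, naming rule and tests were chosen with earlier results of these data known. The rule names all members, up to 2 rises and 2 falls per list that passed limma, tested genes within 100 kb, and the 4 tested genes most like SCD. Further genes were named after their values were seen. Positions and exons are from GENCODE 29 and promoter sequences from RefSeq (GRCh38.p14), where all 10 genes matched. Work was done in R 4.3.3 and in Python 3.11.15 with pandas 2.3.3, numpy 2.4.6 and, for plots, matplotlib 3.10.9.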

Additional observations from a re-analysis of the deposited data

How the results depend on the processing

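Of 99 values of single members under alternatives, 90 kept their direction and their side of the threshold, 6 lost a call (FADS1 without control 1, and ELOVL5 without the filter and without each library), 3 gained one (ELOVL7 with edgeR and DESeq2, FADS2 with DESeq2) and 0 reversed. For 22 other named genes 158 of 242 values stayed on their side, 84 lost a call and 0 reversed, and the cause was not tested. Among them, ACSL4, PECR, SREBF1, SREBF2, SLC2A3, FABP1 and AMDHD1 kept their calls without the filter, and the others had an adjusted p of 0.0528 to 0.147 there. Members called higher numbered 1 in limma and 2 with edgeR or DESeq2. Members called lower numbered 3 in limma and with edgeR, 4 with DESeq2 and 2 without the filter. With a library left out, fewer members were called lower than in limma on all libraries. Over all genes, limma called 873 higher and 676 lower. Without the filter it called 170 and 214, where 26603 genes share the adjustment. Of these genes 2073 were at 0 FPKM in both drug libraries and none in both control libraries. Counts of higher and lower genes over all rows are therefore not on an equal footing. With TMM-scaled FPKM limma called 549 and 724, so the balance of directions turned. edgeR called 953 and 1195, and DESeq2 1047 and 1230. With a library left out, 115 to 221 genes were higher and 188 to 274 lower, from fewer samples. Deviations of libraries with the same number correlated at 0.0278 over 11227 genes, which cannot show whether those libraries were prepared together. The labels give the numbers without stating a pairing. The replicate block gave 474 higher and 451 lower, with each member on its side of the threshold. It lost the calls of HACD3, ACSL3, PPARA, EBNA1BP2 and DEPDC1B (limma adjusted p 0.0594 to 0.0858). The SCD share differed by -23.8 percentage points between drug and control, and by -24.8 to -22.8 with a library left out. The ratio of FADS2 to FADS1 in drug over control was 0.956, and 0.885 to 1.04 with a library left out. That of ELOVL5 to ELOVL6 was 0.979, and 0.952 to 1.01. Groups of 2 libraries and the low read numbers of FADS2, FADS3 and ELOVL7 limit what could be detected.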
